A study of Homo sapiens with 18 samples.

Results

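The mRNA of 10 genes for secreted inflammatory factors was followed through induction of G0S2 in 2 human breast cancer cell lines: the chemokine genes CCL2, CCL5, CXCL8, CXCL1, CXCL2, CXCL3 and CXCL16, and the cytokine genes CSF1, IL6 and LIF. They were taken by symbol from a table of each line, and all 10 were found among the 16410 genes of either table. MDA-MB-231, an estrogen receptor negative line, listed 9 of them among 14308 genes, all but CCL5. T47D, an estrogen receptor positive line, listed 3 among 14768 genes, namely CCL5, CXCL16 and CSF1. A gene without a row in a table was not analysed here in that line.

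Each line carries a G0S2 gene that doxycycline switches on, and each gave 3 libraries after 0 days (the control, without induction), 3 after 3 days and 3 after 15 days with doxycycline at 0.5 ug/ml, which makes 18 libraries of total RNA. All groups of a line carry the inducible gene. An arm with the drug and without the gene was not analysed here, nor were cells kept 3 or 15 days without the drug. G0S2, doxycycline, the vector and time in culture therefore cannot be told apart. The labels say neither which promoter or vector carries the gene, nor whether each line is 1 clone, nor that each library had a culture of its own, so p-values capture only library-to-library spread, which may be technical. The series text mentions biological triplicates, but for other lines than the labels describe, and the labels were followed. Levels are CPM, the reads of a gene scaled to the effective size of its library (its total times a scaling factor between 0.991 and 1.012), every group has n = 3 libraries, errors are SD, and a fold is the difference of mean log2 CPM. Tests used limma, and called means an adjusted p under 0.05 after Benjamini-Hochberg adjustment over the whole table. The 2 tables were scaled separately, so lines are set side by side without a test.

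Chemokines are small secreted proteins that guide leukocytes along a gradient. CC chemokines such as CCL2 and CCL5 act mainly on monocytes and T cells, while the CXC chemokines CXCL8, CXCL1, CXCL2 and CXCL3 act on neutrophils through CXCR1 and CXCR2. CSF1 is the growth factor of macrophages, and IL6 and LIF signal through the shared receptor chain IL6ST to STAT3. Many of these genes are textbook targets of NF-kB, CCL5 is also a target of interferon signaling, and breast cancer cells are known to secrete several of them.

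Libraries of MDA-MB-231 held 37.0 to 52.4 M reads on listed genes and those of T47D 40.1 to 51.0 M, so that 3 reads stood for 0.0574 to 0.0818 CPM and 0.0593 to 0.0751 CPM in the 2 lines. The induced gene followed the labels. In MDA-MB-231 control G0S2 was at 25.02 to 25.5 CPM, at day 3 at 1429 to 1506, and by day 15 at 1103 to 1294. In T47D control it was at 0.277 to 0.900 CPM, at day 3 at 844 to 883, and by day 15 at 736 to 993. All 7 identity markers of each line (VIM and AXL among those of MDA-MB-231, ESR1 and GATA3 among those of T47D) had rows in its own table. Their summed control levels were 7334 to 7378 CPM in MDA-MB-231 and 6423 to 6523 CPM in T47D. MDA-MB-231 also listed 3 of the 7 T47D markers (GATA3, XBP1 and KRT19, summed 232 to 238 CPM in control). T47D listed 1 of the 7 MDA-MB-231 markers (CD44, 10.1 to 11.8 CPM in control). In T47D, day 15 replicate 2 stood apart from the other day 15 libraries: the chi-square per degree of freedom of its pairs was 14.5 and 23.6, against at most 5.92 for all other pairs of libraries of a group. Without it the genes called at day 15 in T47D numbered 3705, against 1659 with it.

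In MDA-MB-231, CCL2, CXCL8, CXCL16 and CSF1 fell by day 15, and of these CSF1 alone was called at day 3. In T47D, CCL5 rose to 12.8 times its control level at day 3 and was at 3.78 times that level at day 15, while CXCL16 and CSF1 were not called at either time. The table of MDA-MB-231 called 253 genes at day 3 (1.77% of all), of which 125 were lower (0.874%), and 1173 at day 15 (8.2%), of which 683 were lower (4.77%) and 490 higher (3.42%). With each library centred on its median gene, the day 15 calls split into 502 lower and 658 higher. Against this background, 1 of 9 members was called lower at day 3 and 4 of 9 at day 15 (3 of 9 without any 1 of the 6 libraries compared), and none was called higher. In RNA of whole cultures, fewer cells that make a factor and less RNA per cell cannot be told apart.

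The stretch of DNA just before the RefSeq start of transcription is shown first for the members with a RefSeq promoter sequence. It holds the letters that NF-kB proteins are known to bind. Of the 10 members, 5 had an entry in the table used here: CXCL8, CXCL1, CXCL2, CXCL3 and IL6. RefSeq starts differ from the GENCODE gene positions given further below. For CXCL8, CXCL2, CXCL3 and IL6 the stretch shown lies partly or wholly within the GENCODE span of the gene. Each line below reads 5′ to 3′ on the strand of the gene from 100 to 41 bases before the RefSeq start (RefSeq, GRCh38.p14), with NF-kB motif matches in capitals.
CXCL8, chr4:73740469-73740528, plus strand: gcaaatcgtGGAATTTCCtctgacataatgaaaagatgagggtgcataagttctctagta
CXCL1, chr4:73869293-73869352, plus strand: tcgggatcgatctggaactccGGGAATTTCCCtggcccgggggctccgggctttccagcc
CXCL2, chr4:74099236-74099295, minus strand: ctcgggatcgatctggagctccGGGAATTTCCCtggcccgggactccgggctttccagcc
CXCL3, chr4:74038730-74038789, minus strand: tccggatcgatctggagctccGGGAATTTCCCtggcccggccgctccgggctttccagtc
IL6, chr7:22727100-22727159, plus strand: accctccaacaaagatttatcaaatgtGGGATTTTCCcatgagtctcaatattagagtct

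Motifs were searched on both strands from 250 bases before to 50 bases after the start. The NF-kB consensus was found in CXCL1, CXCL2, CXCL3 and IL6 and in 5.91% of all 35116 promoters of the table. A shorter NF-kB form, GGAANTTCC, was found in CXCL8, CXCL1, CXCL2 and CXCL3 and in 0.965% of all promoters, and where a promoter held both forms the matches overlapped. CXCL8 also held the AP-1 motif TGANTCA, 137 to 131 bases before the start, outside the window shown, which 7.71% of promoters hold. The core of the interferon response element (GAAA, any 2 letters, GAAA) was in none of the 5 and in 3.57% of all promoters. CCL2, CCL5, CXCL16, CSF1 and LIF had no entry and were not searched for any motif. CXCL1, CXCL2 and CXCL3 show the same run of capitals, and the 3 genes are on chromosome 4 as CXCL8 is. A match is a description of letters, not a binding site. Of the 5 genes with NF-kB letters of 1 form or the other, CXCL8 was called lower at day 15, and CXCL1, CXCL2, CXCL3 and IL6 were not called. Differences between these genes were not tested. The day 15 intervals of CXCL1 (-0.58 to 0.21) and CXCL3 (-0.85 to 0.41) include the log2 fold of CXCL8 (-0.47). The part of these letters in the changes was not tested.

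CCL2, the chemokine that draws monocytes through CCR2, had the largest fall among the 9 members of MDA-MB-231 at day 15. The gene (ENSG00000108691.9) lies at chr17:34255218-34257203 on the plus strand of GRCh38. Its level was 5.98, 6.09 and 7.02 CPM in the control libraries, 5.11, 5.58 and 4.49 CPM at day 3, and 3.60, 3.94 and 4.09 CPM at day 15. The 3 groups did not overlap, with the control highest and day 15 lowest. At day 15 it fell by 38.6% (log2 fold -0.70, SE 0.101, 95% interval -0.91 to -0.50, adjusted p = 4.11e-05). At day 3 the log2 fold was -0.33 (SE 0.101, adjusted p = 0.0995), which missed the threshold.

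CXCL8, the main neutrophil chemokine, stands at chr4:73740506-73743716 on the plus strand (ENSG00000169429.10). It had 5.66, 5.66 and 6.02 CPM in control, 6.31, 5.26 and 5.62 CPM at day 3, and 4.08, 3.94 and 4.42 CPM at day 15. The day 3 libraries lay across the control range, whereas every day 15 library was below every other library. At day 15 CXCL8 fell by 27.96% (log2 fold -0.47, SE 0.0942, 95% interval -0.67 to -0.28, adjusted p = 0.00215). The log2 fold at day 3 was -0.02 (SE 0.0942, 95% interval -0.21 to 0.18, adjusted p = 0.969).

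**Figure D1:**
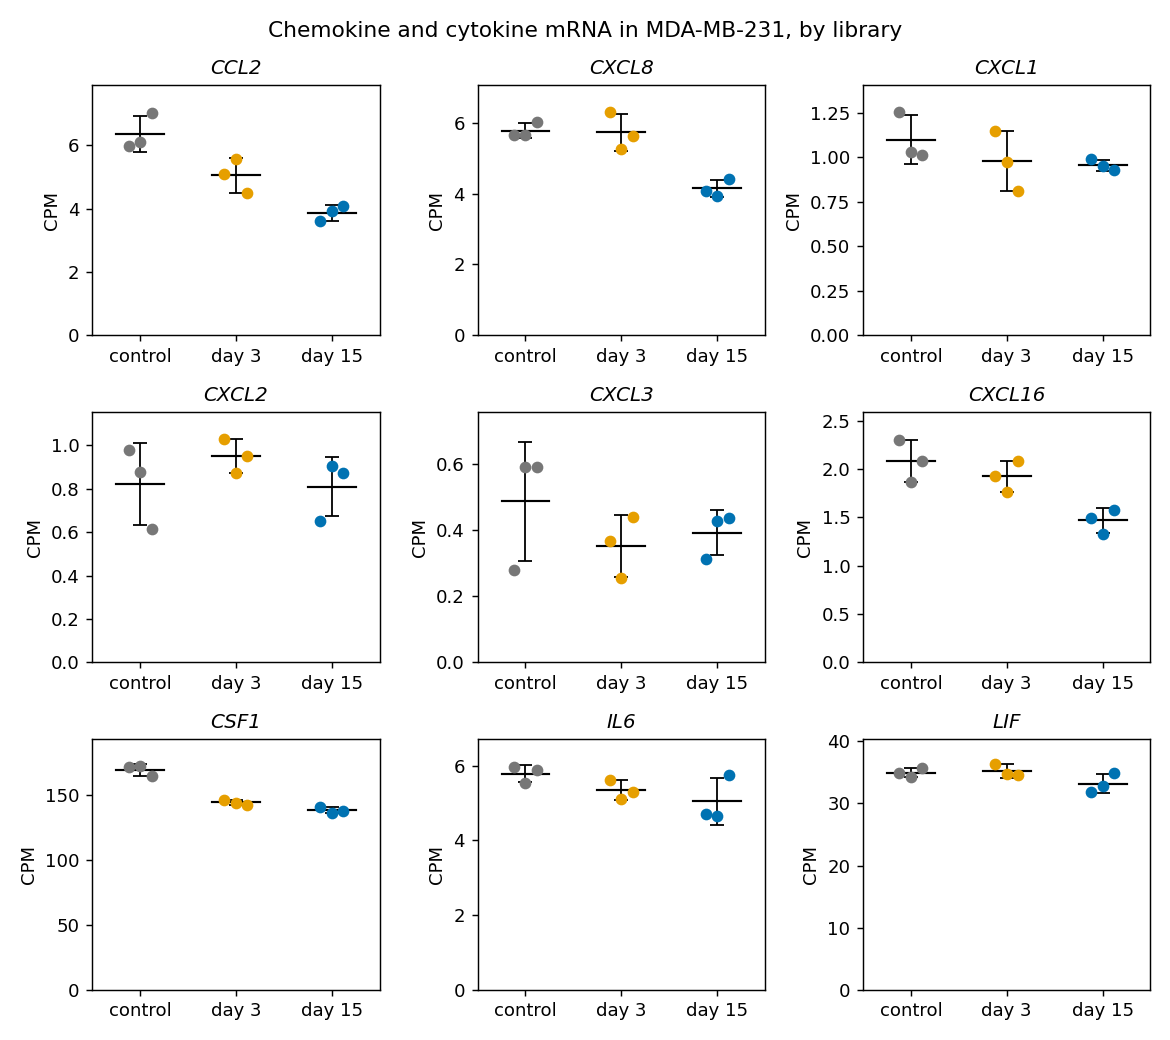
Levels of the 9 genes in MDA-MB-231, in CPM on linear axes that start at 0, for control, day 3 and day 15 libraries (3 points a group, black line at the mean, bars for SD). CCL2 steps down through the 3 groups (6.37, 5.06 and 3.88 CPM on average), CXCL8 is lower at day 15 alone, CSF1 is lower at both times, and CXCL2 and CXCL3 overlap throughout.

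CXCL1, CXCL2 and CXCL3 encode close relatives of one another that signal through CXCR2. They lie on chromosome 4 of GRCh38, at 73869393 to 73871242 on the plus strand, 74097035 to 74099293 on the minus strand and 74036589 to 74038807 on the minus strand (ENSG00000163739.4, ENSG00000081041.8 and ENSG00000163734.4). Their transcripts are 81.7% to 90.5% identical over the aligned bases, with identical runs of up to 97 bases, so reads of one may have been given to another or dropped by the authors' counting.

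All 3 were low. CXCL1 had 1.26, 1.03 and 1.01 CPM in control, 1.15, 0.976 and 0.810 CPM at day 3, and 0.991, 0.949 and 0.927 CPM at day 15. CXCL2 had 0.977, 0.877 and 0.612 CPM in control, 1.03, 0.870 and 0.948 CPM at day 3, and 0.652, 0.902 and 0.872 CPM at day 15. CXCL3 had 0.279, 0.592 and 0.593 CPM in control, 0.367, 0.255 and 0.440 CPM at day 3, and 0.314, 0.427 and 0.436 CPM at day 15, which is 12 to 31 reads a library. None of the 3 passed the test at either time. At day 15 the day 15 and control libraries of CXCL1 did not overlap, but its log2 fold of -0.18 had a 95% interval from -0.58 to 0.21 (adjusted p = 0.603). The day 15 intervals of CXCL2 (-0.45 to 0.43) and CXCL3 (-0.85 to 0.41) also lie across 0. All 3 intervals include the fold of CSF1 (-0.29).

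CXCL16 is unusual among chemokines in being made as a membrane protein that ADAM proteases release, and its receptor is CXCR6. The gene (ENSG00000161921.14) lies at chr17:4733526-4739922 on the minus strand and shares 85 bases of exon with MED11 on the other strand. In MDA-MB-231 it had 2.30, 1.86 and 2.08 CPM in control, 1.93, 1.76 and 2.08 CPM at day 3, and 1.498, 1.33 and 1.58 CPM at day 15. Day 15 libraries lay below all others, and day 3 libraries overlapped the control. At day 15 it fell by 28.5% (log2 fold -0.48, SE 0.148, 95% interval -0.79 to -0.18, adjusted p = 0.0411), close to the threshold. The call was lost when any 1 of the 6 control and day 15 libraries was left out (adjusted p 0.0528 to 0.201) and with voom weights (adjusted p = 0.0587). At day 3 the log2 fold was -0.11 (SE 0.148, adjusted p = 0.82).

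CSF1, which macrophages need to survive and multiply, was the most abundant of the 9 per length of transcript. The gene (ENSG00000184371.13) lies at chr1:109910242-109930992 on the plus strand. It had 171.6, 172.5 and 164.7 CPM in control, 146.8, 144.4 and 142.7 CPM at day 3, and 140.9, 136.5 and 138.2 CPM at day 15. No group overlapped another, and most of the step was present at day 3. It fell by 14.7% at day 3 (log2 fold -0.23, SE 0.0273, adjusted p = 3.84e-06) and by 18.3% at day 15 (log2 fold -0.29, SE 0.0273, adjusted p = 3.13e-08). The change was the smallest in size of the 4 called at day 15, and it had the smallest error of the 9 genes.

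IL6, a cytokine of the acute phase that acts through IL6R and IL6ST, had 5.96, 5.52 and 5.87 CPM in control, 5.62, 5.11 and 5.30 CPM at day 3, and 4.71, 4.65 and 5.75 CPM at day 15. Day 15 replicates 1 and 2 lay below the control range and replicate 3 within it. The log2 fold at day 15 was -0.20 (SE 0.0955, 95% interval -0.40 to -0.01, adjusted p = 0.192), which missed the threshold. LIF, a cytokine of the same family that binds LIFR and IL6ST, had 35.0, 34.2 and 35.7 CPM in control, 36.4, 34.7 and 34.5 CPM at day 3, and 31.9, 32.8 and 34.9 CPM at day 15. Its groups overlapped at both times. The 95% interval of its log2 fold at day 15, -0.16 to 0.01 (adjusted p = 0.301), does not reach the fold of CCL2, CXCL8, CXCL16 or CSF1.

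IL6 (ENSG00000136244.11, chr7:22725884-22732002, plus strand) shares 428 bases of exon with genes on the other strand, among them STEAP1B. LIF (ENSG00000128342.4, chr22:30240447-30246851, minus strand) shares 267 with the other strand, where LIF-AS1 lies. The use of strand in counting is not given in the sources used here, so reads of these overlaps could not be told apart.

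**Figure D2:**
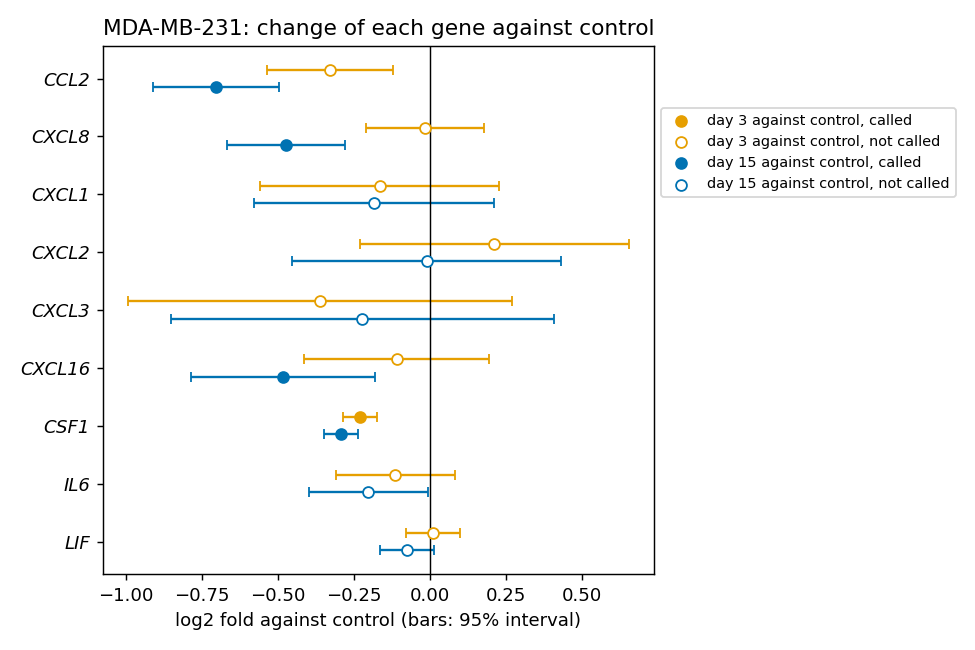
Log2 fold of each gene in MDA-MB-231 against control at day 3 (orange) and day 15 (blue), with 95% intervals; filled points were called. At day 15 CCL2 (-0.70), CXCL16 (-0.48), CXCL8 (-0.47) and CSF1 (-0.29) are filled, and the intervals of CXCL1, CXCL2 and CXCL3 are the widest 3.

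All 9 log2 folds of MDA-MB-231 were below 0 at day 15, with a median of -0.22 against 0.0010 over all genes, although CXCL2 (-0.01) was above 0 once libraries were centred on the median gene (0.0064). At day 3, 7 of 9 were below 0 and the median was -0.11, against 0.0016 over all genes. Day 15 and control libraries did not overlap for 5 of the 9, all lower, against 12.6% of all genes lower without overlap. At day 3 this held for CCL2 and CSF1, against 10.1% of all genes. The same 3 control libraries serve both comparisons, so the agreement between the times is not independent.

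Day 15 was also set against day 3. Between these times CXCL8 fell by a log2 fold of 0.46 (SE 0.0942, adjusted p = 0.00554) and CCL2 by 0.37 (SE 0.101, adjusted p = 0.0295), which is 2 of 9 members against 2.86% of all genes called lower. Both calls depended on single libraries. That of CXCL8 was lost without day 3 replicate 1 (adjusted p = 0.0693), and that of CCL2 without day 3 replicate 1 (adjusted p = 0.125), day 3 replicate 2 (adjusted p = 0.181) or day 15 replicate 1 (adjusted p = 0.124). For CSF1 the day 15 libraries were again below every day 3 library, but the log2 fold was -0.06 (SE 0.0273, adjusted p = 0.181). Day 15 libraries lay below all day 3 libraries for 4 of 9 members (CCL2, CXCL8, CXCL16 and CSF1), against 13% of all genes.

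Per kb of coding transcript, the order of levels in MDA-MB-231 control cells ran from CSF1 (34.7 ± 0.874 CPM per kb) through LIF (8.81 ± 0.187), CCL2 (5.67 ± 0.507), IL6 (3.38 ± 0.134), CXCL8 (2.89 ± 0.106), CXCL1 (1.00 ± 0.124), CXCL16 (0.858 ± 0.0907) and CXCL2 (0.675 ± 0.155) to CXCL3 (0.454 ± 0.168). The ranges of CXCL1 and CXCL16, of CXCL16 and CXCL2, and of CXCL2 and CXCL3 overlapped, so these neighbours were not separated. At day 15 the level of CCL2 (3.21 to 3.64 CPM per kb) overlapped that of IL6 (2.71 to 3.36), which it had exceeded in every control library. CXCL16 then lay within the range of CXCL2.

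The genes whose log2 CPM followed CCL2 most closely over the 9 MDA-MB-231 libraries, among 11817 genes, were DUSP4 (Pearson r = 0.951), ADAMTS12 (0.946), CEMIP (0.945), MUC1 (0.944) and PIAS4 (0.944). DUSP4 encodes a phosphatase of MAP kinases, CEMIP a protein that binds and helps degrade hyaluronan, and MUC1 a membrane mucin. CEMIP had the largest day 15 fold of the 5 at -0.40, against -0.70 for CCL2. Among the other members r was 0.841 for CSF1, 0.812 for CXCL8 and 0.749 for CXCL16, and -0.06 for CXCL2. These values describe 9 libraries that share 3 groups, and a difference between groups enters each of them.

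In T47D the member that changed was CCL5, a chemokine that attracts T cells and monocytes. The gene (ENSG00000271503.5) lies at chr17:35871491-35880793 on the minus strand. It had 0.270, 0.277 and 0.276 CPM in the control libraries (11 to 14 reads), 3.54, 3.29 and 3.66 CPM at day 3 (149 to 162 reads), and 1.14, 1.076 and 0.899 CPM at day 15 (43 to 52 reads). The 3 groups stood far apart, with day 3 highest and day 15 between day 3 and control. The ratio of mean CPM to control was 12.8 at day 3 and 3.78 at day 15.

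On the log2 scale, where the added 3 reads lower the change of so scarce a gene, CCL5 rose by 3.39 at day 3 (SE 0.161, adjusted p = 2.74e-09) and by 1.69 at day 15 (SE 0.161, adjusted p = 8.40e-06). Day 15 was lower than day 3 by a log2 fold of -1.70 (SE 0.161, adjusted p = 1.24e-05). CCL5 was thus 1 of 3 listed members called higher at each time and 1 of 3 called lower from day 3 to day 15. Over all genes, 1.16% were called higher at day 3, 5% higher at day 15, and 3.35% lower at day 15 than at day 3. CCL5 had 11 to 14 reads in control and may be listed only through its day 3 level. Whether its row depends on that level was not tested. Without day 15 replicate 2, CCL5 rose by 1.66 at day 15 (adjusted p = 2.61e-07) and its log2 fold at day 15 against day 3 was -1.73 (adjusted p = 2.13e-07).

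CXCL16 was the abundant member of T47D, with 82.4, 87.2 and 88.2 CPM in control, 84.3, 89.5 and 88.4 CPM at day 3, and 83.1, 86.7 and 78.9 CPM at day 15. The groups overlapped. The 95% interval of its log2 fold was -0.07 to 0.12 at day 3 (adjusted p = 0.943) and -0.15 to 0.04 at day 15 (adjusted p = 0.518). Against day 3 its log2 fold at day 15 was -0.08 (adjusted p = 0.402), and without day 15 replicate 2 it was -0.11 and called (adjusted p = 0.0487). CSF1 had 1.75, 1.36 and 1.38 CPM in control, 1.52, 1.77 and 1.58 CPM at day 3, and 1.35, 1.076 and 1.63 CPM at day 15, also with overlap. Its intervals were wider, -0.25 to 0.48 at day 3 (adjusted p = 0.915) and -0.52 to 0.22 at day 15 (adjusted p = 0.656), and include the folds seen for CSF1 in MDA-MB-231.

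**Figure D3:**
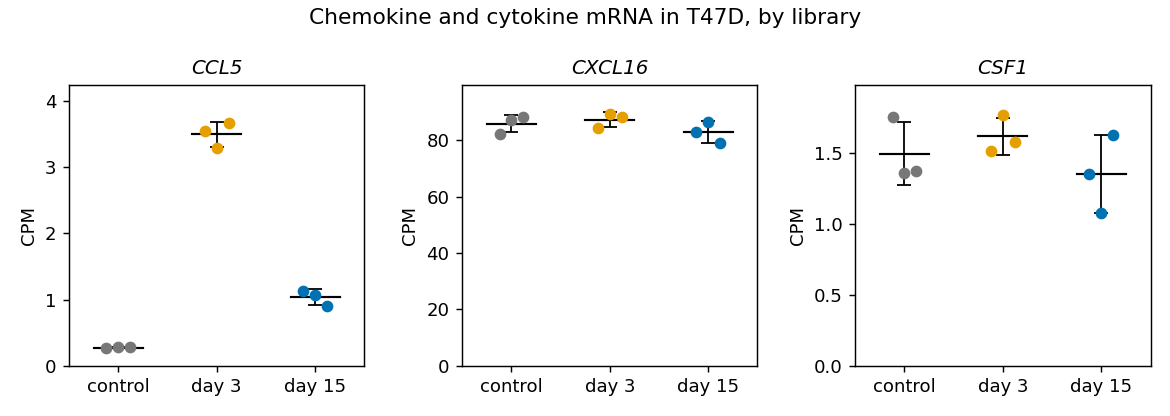
Levels of CCL5, CXCL16 and CSF1 in T47D, in CPM on linear axes that start at 0, for control, day 3 and day 15 libraries (3 points a group, black line at the mean, bars for SD). CCL5 peaks at day 3 (3.50 CPM on average) and is between the other groups at day 15 (1.04 CPM), while the groups of CXCL16 and CSF1 overlap.

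Side by side, the lines had opposite orders for the 2 members they share. Per kb of coding transcript, T47D control cells had 35.4 ± 1.27 CPM of CXCL16 and 0.306 ± 0.0453 of CSF1, whereas MDA-MB-231 control cells had 0.858 ± 0.0907 of CXCL16 and 34.7 ± 0.874 of CSF1. Within T47D, CCL5 stood below CSF1 in the control (0.192 ± 0.00260 CPM per kb) and above it at day 3 (2.45 ± 0.131) and day 15 (0.725 ± 0.0863), with no overlap at any time.

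CCL5 changed in the same direction as the interferon-induced genes of T47D. That list holds sensors and effectors of the antiviral response, such as OAS1 and OAS2, which make an activator of RNase L, and IFIT1, which binds foreign RNA. All 14 listed genes were called higher at day 3, with a median log2 fold of 3.17. At day 15, 13 of 14 were called higher, with a median of 1.88. Over all genes of the table the medians were -0.0026 and 0.0028, and 1.16% and 5% were called higher. From day 3 to day 15 all 14 were called lower, against 3.35% of all genes. Without day 3 replicate 1 the count was 13, and IRF1 had an adjusted p of 0.0515.

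OAS1 had 21.7 to 25.1 CPM at day 3 and 0.301 to 0.594 CPM in control, a log2 fold of 5.50 (SE 0.167, adjusted p = 1.01e-10). OAS2 rose by 4.70, IFIT1 by 4.66 and ISG15, a ubiquitin-like protein, by 4.47. At day 15 the largest were OAS1 (3.82), OAS2 (2.82), IFIT1 (2.57) and IFIT3 (2.52). STAT2, a subunit of the interferon-activated transcription factor, had the smallest rise of the 14 at day 3 (0.71, SE 0.0346), and IRF1 was the gene not called at day 15 (log2 fold 0.18, adjusted p = 0.501). The fold of CCL5 lay within the range of the list at both times. OAS and IFIT genes have close relatives whose reads the counting could split.

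**Figure D4:**
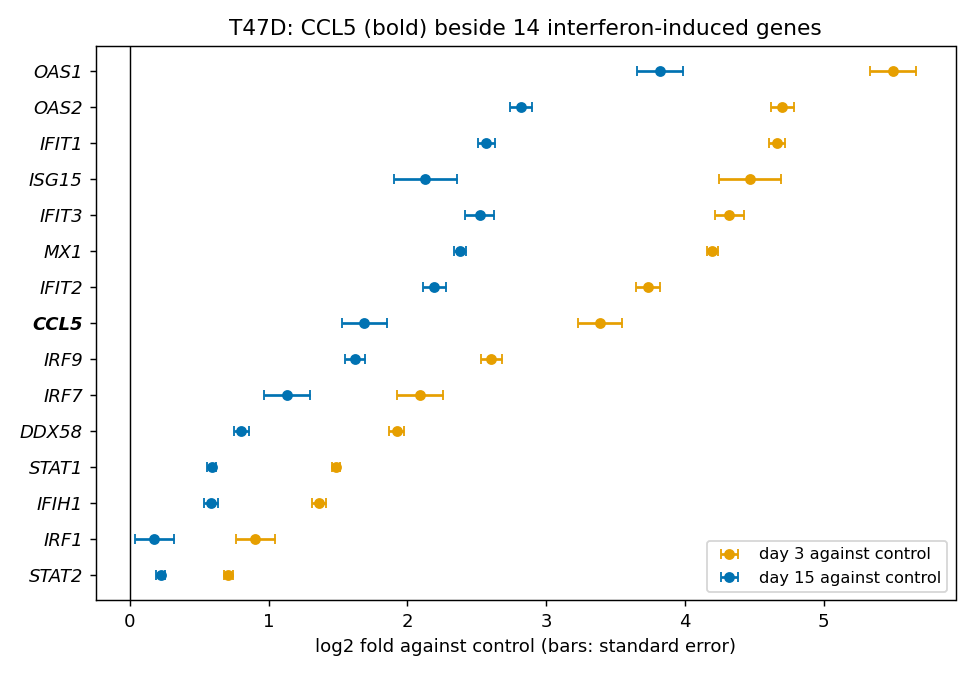
Log2 fold against control in T47D at day 3 (orange) and day 15 (blue) for CCL5 (bold) and the 14 listed interferon-induced genes, with standard errors, ordered by the day 3 fold. Every gene has a smaller fold at day 15 than at day 3, and CCL5 (3.39 and 1.69) sits in the middle of the order.

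In MDA-MB-231, where CCL5 was not analysed, none of the same 14 interferon-induced genes was called at day 3 by limma (3 had an unadjusted p under 0.05, and voom called 0), and IRF1 alone was called at day 15 (log2 fold -0.16, lost in 4 of 6 omissions of 1 library). With a block on replicate numbers 1 was called lower at day 3 and 3 at day 15. The genes most like CCL5 over the 9 T47D libraries, among 12052 genes, were OAS3 (Pearson r = 0.998), DTX3L (0.997), IFITM3 (0.997), LAMP3 (0.996) and BST2 (0.995). OAS3 is a further oligoadenylate synthetase, and IFITM3 and BST2 are membrane proteins that restrict viruses. Their log2 folds at day 3 were 1.99, 1.65, 2.63, 2.07 and 1.34 in that order. The r of CCL5 with CXCL16 was 0.196 and with CSF1 0.198. As for CCL2, these values describe 9 libraries that share 3 groups, and the differences between groups enter each r.

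Among 23 genes of the NF-kB pathway, MDA-MB-231 had 4 lower and none higher at day 3, against 0.874% of all genes called lower. At day 15 it had 10 lower and none higher, against 4.77% of all genes called lower. The median log2 fold of the 23 was then -0.14, against 0.0010 over all genes. At day 15 the largest falls were in ICAM1, an adhesion molecule for leukocytes, with 30.6 to 32.2 CPM at day 15 and 41.6 to 43.1 CPM in control (-0.42, adjusted p = 2.97e-08), NFKBIE (-0.32), TRAF1 (-0.30) and BCL3 (-0.29). The list holds inhibitors of NF-kB, such as NFKBIE, beside its targets. The call of TRAF1 was lost without control replicate 2 or day 15 replicate 1 (adjusted p up to 0.125). At day 3 the called genes were NFKBIA (-0.23), IER3 (-0.18), BIRC3 (-0.18) and ICAM1 (-0.16), and the count was 2 or 3 when any 1 of the 6 libraries was left out and 2 without trend and robust moderation. ICAM1 was lost in all 6 of these omissions (adjusted p up to 0.174) and BIRC3 in 2. In this line the count at day 15 was 7 to 11 when 1 library was left out and 5 without trend and robust moderation.

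The same 23 genes were listed in T47D. Of all 14768 genes of its table, 277 were called at day 3, and 739 were called higher and 920 lower at day 15. At day 3 TNFAIP3, an inhibitor of NF-kB signaling, was the 1 gene called (log2 fold 0.72, adjusted p = 0.00885, lost without control replicate 2 or day 3 replicate 2). At day 15 BIRC3 (0.41) and TNFAIP2 (0.33) were called higher and IER3 (-0.32) lower. The call of TNFAIP2 was lost in 4 of 6 omissions. The difference between the lines was not tested.

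Of 30 other cytokine genes, MDA-MB-231 listed 17, of which 4 were called lower at day 15 and 13 were not called, against 4.77% of all genes called lower. The count was 3 or 4 when 1 library was left out and 2 without trend and robust moderation. TNFSF15, a TNF family cytokine, had 9.54 to 11.1 CPM at day 15 and 20.5 to 23.4 CPM in control, a log2 fold of -1.13 (SE 0.0667, adjusted p = 3.23e-12). GDF15, a stress-induced cytokine, fell by 0.69, TNFSF10, a death receptor ligand, by 0.29, and TGFB2 by 0.10 at day 15, the last of these lost in 4 of 6 omissions. None of the 17 was called higher. At day 3 TNFSF15 (-0.83) and IL11 (-0.15) were called, against 0.874% of all genes called lower, and IL11 was lost in 3 of 6 omissions. In T47D, of 13 listed, TNFSF10 was called higher at day 3 (0.48, lost in 5 of 6 omissions) and TGFB2 lower at day 15 (-0.71). Over all 14768 genes there, 1.16% were called higher at day 3 and 920 genes lower at day 15.

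Few other chemokine genes were listed, 3 of 18 in each line. In MDA-MB-231 CCL26, CCL28 and CX3CL1 were not called by limma at day 15 (2 had an unadjusted p under 0.05, and voom called 0), but without day 15 replicate 1 or 2 there was 1 called lower. In T47D CCL28, a mucosal chemokine, had 22.5 to 24.0 CPM at day 3 and 30.1 to 32.0 CPM in control (log2 fold -0.42, adjusted p = 0.000175), and was also lower at day 15 (-0.34). CXCL14 had 1 to 6 reads at day 15 and 23 to 40 reads in control (-2.33, adjusted p = 0.000549). That makes 1 of 3 called lower at day 3 and 2 of 3 at day 15, against 106 and 920 of all 14768 genes. CXCL12, the ligand of CXCR4, stood at 857.5 to 886 CPM at day 15 and 845 to 874 CPM in control and was not called.

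Of the receptors of the 10 factors, MDA-MB-231 listed CCR1, CSF1R, IL6R, IL6ST and LIFR of 14 symbols, and limma called 0 of them at either time (1 had an unadjusted p under 0.05 at each, and voom called 0), but without control replicate 3 there was 1 called higher at each time. IL6ST had 511 to 526 CPM at day 15 and 490 to 511 CPM in control there. In T47D, where 5% of all genes were called higher at day 15, 1 of 4 listed receptors was called against control. That receptor was IL6ST at day 15 (log2 fold 0.13, adjusted p = 0.026, lost in 4 of 6 omissions). It was also higher at day 15 than at day 3, by a log2 fold of 0.23 (adjusted p = 0.000947), a call kept in all 6 omissions. The proteases that release CXCL16 and CSF1, ADAM10 and ADAM17, and their partners RHBDF1 and RHBDF2 were not called by limma in any comparison with all libraries (0 had an unadjusted p under 0.05, and voom called 0), and 1 was called lower in T47D at day 15 against day 3 without day 15 replicate 2. Of 15 genes of IL6 and LIF signaling, SOCS2 (-0.24) and PIM1 (-0.16) were called lower in MDA-MB-231 at day 15. PIM1 was lost in 4 of 6 omissions, and 4.77% of all genes of that line were called lower. In T47D, of 13 listed, JAK1 was lower at day 3 (-0.13, lost in all 6 omissions) and PTPN11 at day 15 (-0.19). Over all 14768 genes of T47D, 106 were called lower at day 3 and 920 at day 15.

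Leukocytes and fibroblasts make many of these factors, so their markers are given beside them. Of 11 leukocyte markers MDA-MB-231 listed 4, whose summed level was 83.1 to 86.7 CPM in control, 86.3 to 87.8 at day 3 and 84.6 to 93.6 at day 15, most of it CD68, with PTPRC at 0.580 to 0.763 CPM at day 15 and 0.614 to 0.822 CPM in control. In T47D, LCP1 had 7.97 to 9.11 CPM at day 15 and 8.72 to 9.47 CPM in control, CD14 had 0.627 to 0.659 and 0.426 to 0.630 CPM, and CD68 had 0.648 to 1.05 and 0.401 to 0.752 CPM in the same order, while PTPRC was not analysed there. None of these leukocyte markers was called in its line. Of 9 fibroblast markers MDA-MB-231 listed 5, with 17.8 to 18.8, 16.0 to 18.4 and 15.3 to 15.9 CPM, and PDGFRB fell at day 15 (-0.52). T47D listed 3 with 51.8 to 58.5, 49.0 to 51.5 and 45.1 to 46.0 CPM, and COL3A1 fell at day 15 (-1.08). Endothelial markers had 2 of 6 rows in MDA-MB-231, with 9.62 to 10.3 CPM in control, 8.38 to 9.81 at day 3 and 9.16 to 9.21 at day 15, and neither was called. The part of these markers in the results was not tested.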

How the data were processed

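Total RNA of 18 libraries, extracted on spin columns, was sequenced on a HiSeq, per the labels. The submitters' processing notes name STAR, featureCounts and limma without versions, and build GRCh38.p13. The deposited tables hold log2 CPM per gene and library, 1 table a line, scaled separately; the unit was read from the values. Every deposited value equalled whole reads, within a tolerance of 0.1 reads, after subtracting 3 reads scaled to depth, and linear CPM come from those reads. No column was left unused. Files without raw counts were tested on the log2 scale: limma 3.58.1 in R 4.3.3 (statmod 1.5.0) was fitted to the 9 libraries of a line with group means, trend and robust moderation, and Benjamini-Hochberg adjustment over all genes. Intervals cover the spread between libraries.

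The members, lists and tests were chosen with earlier results of these data known. Named genes were all members, G0S2, up to 4 called genes of each list per comparison by size, and the 5 genes most correlated with the member of largest called fold, with mean log2 CPM of 1 or more. Genes named because they were not called were chosen after their values were seen. Gene positions and lengths are from GENCODE release 29 (GRCh38), promoters from RefSeq (GRCh38.p14), and alignments from Biopython. Every pair of libraries of a group differed by more than sampling noise (chi-square per degree of freedom 1.74 to 23.6). Alternatives were other variance moderation, low-gene filter, median centring, 1 CPM added, 6 libraries, a block on replicate numbers, single libraries left out and, chosen after seeing the data, voom weights on the recovered reads. Some markers are not reported here.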

Additional observations from a re-analysis of the deposited data

Results flagged for a closer look

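The responses of 3 genes differed between the 2 times of induction by a test of the difference itself, which compares day 15 with day 3 and in which the control cancels out. In MDA-MB-231 the response of CCL2 was lower at day 15 than at day 3 by a log2 difference of -0.37, and that of CXCL8 by -0.46. In T47D the response of CCL5 differed by -1.70, its day 15 libraries lying at 0.899 to 1.14 CPM and its day 3 libraries at 3.29 to 3.66 CPM. Each kept its direction in every alternative in which the gene was tested, 13 for CCL2, 13 for CXCL8 and 12 for CCL5, and of these 3 genes CCL5 alone was called in all of them.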

How the results depend on the processing

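Of 36 comparisons of a member in a line, 30 kept their direction in every alternative run and 25 kept both direction and call. CCL2, CXCL8 and CSF1 at day 15, CSF1 at day 3 (MDA-MB-231) and CCL5 in T47D kept their calls in every alternative in which they were tested. CXCL16 at day 15 in MDA-MB-231 was also lost without trend and robust moderation (adjusted p = 0.0594) and with 6 libraries (adjusted p = 0.066). The count of members called lower at day 3 in MDA-MB-231 was 2 with 6 libraries, and from day 3 to day 15 it was 0 without trend and robust moderation, 1 with voom and 0 to 2 without single libraries; in T47D that last count was 1 to 2, CXCL16 being added without day 15 replicate 2. With genes of mean log2 CPM of 1 or more alone, CCL5 was not tested, so the T47D counts were 0, and CXCL1, CXCL2, CXCL3 and CXCL16 of MDA-MB-231 and CSF1 of T47D dropped out too.

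The sign reversed in 6 uncalled member comparisons and in 1 of G0S2. Without single libraries, the log2 fold in MDA-MB-231 ranged from -0.086 to 0.043 for CXCL8 at day 3, from -0.014 to 0.026 for LIF at day 3 and from -0.19 to 0.12 for CXCL2 at day 15. From day 3 to day 15 it ranged from -0.14 to 0.096 for CXCL1 and from -0.039 to 0.29 for CXCL3. In T47D it ranged from -0.0062 to 0.049 for CXCL16 at day 3, and from -0.20 to 0.019 for G0S2 from day 3 to day 15. CXCL2 at day 15 was also 0.0064 with median centring and 0.0089 with voom, and CXCL1 from day 3 to day 15 was 0.0012 with median centring.

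The number of genes called over a whole table moved more. For MDA-MB-231 at day 3, day 15 and day 15 against day 3, it was 63, 232 and 32 without trend and robust moderation, and 476 and 776 with 6 libraries at the first 2. For T47D it was 921, 996 and 463 with 6 libraries, and 549 for day 15 against day 3 without trend and robust moderation. Without single libraries the ranges were 119 to 259, 457 to 1897 and 124 to 1664 in MDA-MB-231, and 182 to 214, 930 to 3705 and 403 to 2604 in T47D. The cause of these moves was not tested. Whether replicate numbers pair the libraries was not tested. Deviations of same-numbered libraries correlated from -0.031 to 0.28 in MDA-MB-231 and from -0.41 to 0.073 in T47D. Those of differently numbered libraries correlated from -0.26 to 0.19 in MDA-MB-231 and from -0.27 to 0.39 in T47D. With a replicate block the counts were 637, 2273 and 1788 in MDA-MB-231 and 511 for day 15 against day 3 in T47D. CCL2 at day 3 was then called (adjusted p = 0.0429), which makes 2 members. In MDA-MB-231 the block also called 1 interferon-induced gene lower at day 3 and 1 receptor higher at each time. At day 15 it called lower 2 of 3 other chemokines, 6 of 17 other cytokines, 3 of 14 interferon-induced genes and 12 of 23 NF-kB genes. Of 15 genes of IL6 and LIF signaling it called 4 lower and 1 higher at day 15. From day 3 to day 15 it called 6 of 23 NF-kB genes lower. The scarcest members, CXCL3 with 12 to 31 reads and CCL5 in control with 11 to 14, rest on the fewest reads.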

Other observations

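AP-1 proteins, mainly of the JUN and FOS families, are transcription factors that act at CXCL8 and other chemokine genes. CXCL8 was not analysed in T47D. Of 7 listed AP-1 genes, 4 were called lower in T47D at day 15 and none higher, against 920 of all 14768 genes called lower. The count was 3 with voom, with 6 libraries, with a replicate block and without trend and robust moderation. It was 3 or 4 when 1 library was left out, and without day 15 replicate 3 there was also 1 called higher. JUN had 24.0 to 26.4 CPM at day 15 and 30.1 to 32.2 CPM in control (log2 fold -0.31, SE 0.0518, adjusted p = 0.00142). FOSL2 (-0.30), JUND (-0.27) and ATF3 (-0.24) were the others, and ATF3 was lost in 3 of 6 omissions of 1 library. In MDA-MB-231, where CXCL8 was listed, JUND alone of 9 was called at day 15 (-0.14, lost in 3 of 6 omissions).

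Of 10 genes whose proteins bind and turn over or stabilise cytokine mRNA, ZFP36L1 was higher in MDA-MB-231 at day 15 (log2 fold 0.13, adjusted p = 0.0025). In T47D it was lower at day 3 (-0.20) and at day 15 (-0.12, lost in 4 of 6 omissions), and ZFP36L2 was lower at day 15 (-0.36). Over all genes, 3.42% were called higher in MDA-MB-231 at day 15. Of all 14768 genes of T47D, 106 were called lower at day 3 and 920 at day 15. The difference between the lines was not tested.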
